A study of Saccharomyces cerevisiae with 4 samples.

Results

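The pheromone MAP kinase pathway of the budding yeast Saccharomyces cerevisiae was examined in cells grown on galactose and on glucose. Its 10 members here are the G protein subunit genes GPA1, STE4 and STE18, the scaffold gene STE5, the kinase genes STE11, STE7, FUS3 and KSS1, and the transcription factor genes STE12 and TEC1. They were taken as the probe sets whose platform annotation names a single member gene, which gave 12 probe sets of 9275 and 10 genes of 5656. FUS3 is read by 3 probe sets and every other member by 1. The samples were 4 total RNA preparations of strain ATCC 4126, all taken at an optical density of 1.0 at 600 nm. Of these, 2 came from YP medium with galactose (galactose B and galactose C) and 2 from YP medium with glucose (glucose A and glucose B), each measured on 1 Affymetrix array. The labels name no mutation, mating type or ploidy. Nothing in them ties a letter to a culture of its own, so the p-values reflect only how far these arrays spread, and that spread may be technical.

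In haploid cells, pheromone bound to its receptor frees the Gβγ dimer (Ste4 and Ste18) from the Gα subunit Gpa1. Gβγ recruits the scaffold Ste5, on which Ste11 activates Ste7 and Ste7 activates the MAP kinase Fus3, and the transcription factor Ste12 then switches on mating genes. Ste11, Ste7 and a second MAP kinase, Kss1, also serve filamentous growth, where Ste12 acts together with Tec1. This pair of factors also drives transcription of the Ty1 retrotransposon. Genes for Gpa1, Ste4, Ste18, Ste5 and Fus3 are known to be repressed in diploid cells.

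The arrays had median intensities of 108 to 117, and with 2 per medium the precision is low throughout. Galactose B and galactose C differed at least 2-fold at 12.7% of the 7302 probe sets tested, and glucose A and glucose B at 4.29%. As a check of the labels, the galactokinase gene GAL1 had intensities of 9927 and 8965 in galactose B and C, against 36.2 and 40.4 in glucose A and B. Intensities are the deposited values on a linear scale, and a floor was set at their 25th percentile, 18.5. Differences are on the log2 scale after the floor, galactose minus glucose. The level of a probe set depends on its probes as well as on the transcript, so levels are not compared between genes.

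TEC1 had the largest difference among the members, and none of the 10 genes passed the test. Of the 8 member probe sets tested, 0 were called higher and 0 lower (limma, adjusted p under 0.05), where 0.794% of all tested probe sets were called higher and 0.0411% lower (0.835% in all). Members are by rule probe sets with 1 gene symbol, and of 5982 such probe sets fitted alone 6 were called, 5 of them higher (limma). In the fit of all probe sets, 1 member, TEC1, had an unadjusted p under 0.05, where 8.61% of all probe sets lay under that value. For TEC1, STE4 and GPA1 the lower galactose array exceeded the higher glucose array, which was so for 17.0% of all probe sets. The opposite separation was seen for 0 members, against 22.1% of all probe sets. The other 5 overlapped between the media. The 8 differences had a median of 0.23, beside -0.01 over all probe sets, and 7 of 8 lay above 0, against 48.7% of all probe sets. Relative to glucose, the median of the 8 was 0.37 for galactose B and 0.10 for galactose C. STE5 and the 3 FUS3 probe sets lay under the floor on every array and were not tested. All of the 8 tested lay above it on all 4 arrays.

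**Figure D1:**
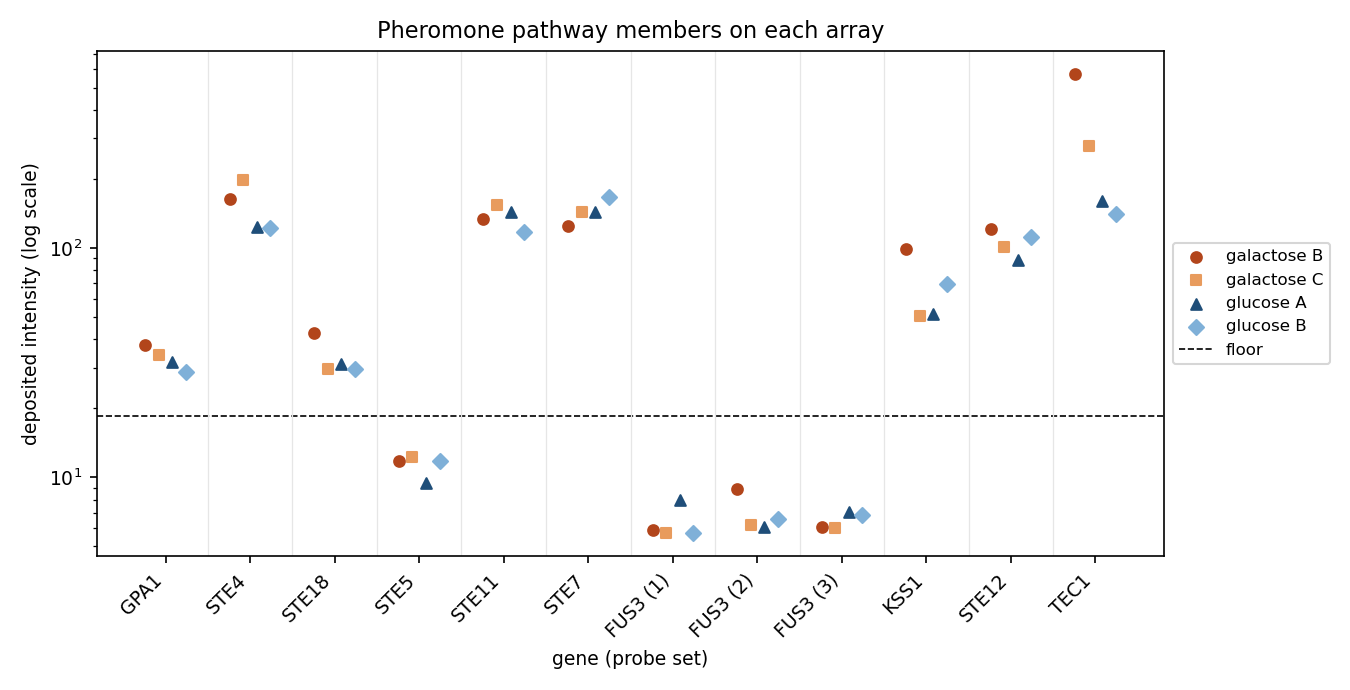
Deposited intensity (log axis) of each member probe set on each array, with galactose B and C left of glucose A and B within each gene. The dashed line is the floor of 18.5: STE5 and the 3 FUS3 probe sets lie under it on all arrays, and TEC1 shows the widest gap between the media.

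Of the G protein genes, STE4, which encodes the Gβ subunit, had intensities of 164 and 198 in galactose B and C, against 123 and 122 in glucose A and B. The glucose arrays lay within 2 units of intensity of each other, while the galactose arrays lay higher and farther apart. The difference was 0.55 ± 0.26 (SE), or 1.47-fold, with a 95% interval of -0.12 to 1.22 that includes 0 (limma, adjusted p = 0.621). It was the second-highest difference among the members, and 8.27% of all tested probe sets had one at least as high.

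GPA1, the gene of the Gα subunit that holds Gβγ inactive, stood at 37.8 and 34.2 in galactose B and C, against 31.8 and 28.8 in glucose A and B. The media did not overlap, but the gap between galactose C and glucose A was smaller than the gap within either medium. Its difference was 0.25 ± 0.17 (SE; 95% interval -0.19 to 0.68, limma adjusted p = 0.734). STE18, the gene of the Gγ partner of Ste4, had 42.4 and 29.6 in galactose B and C and 31.2 and 29.7 in glucose A and B. Galactose B alone stood above the other 3 arrays, which lay within 2 units of intensity of one another. The STE18 difference of 0.22 ± 0.23 (SE; limma adjusted p = 0.811) was -0.04 without galactose B.

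The scaffold gene STE5 lay under the floor throughout, at 11.8 and 12.3 in galactose B and C and 9.49 and 11.8 in glucose A and B. FUS3, the gene of the mating MAP kinase, was likewise under the floor on each of its 3 probe sets. The first read 5.89 and 5.74 in galactose B and C, and 8.0 and 5.71 in glucose A and B. The second read 8.92 and 6.18 in galactose, and 6.08 and 6.57 in glucose. The third read 6.05 and 6.02 in galactose, and 7.04 and 6.87 in glucose. With this floor no difference between the media was estimated for STE5 or FUS3, and a low reading is not a measurement that the transcript was absent.

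The kinase genes above the floor overlapped between the media. STE11, which encodes the MAP kinase kinase kinase, stood at 133 and 154 in galactose B and C, against 144 and 117 in glucose A and B (difference 0.14 ± 0.27 SE, 95% interval -0.56 to 0.84, limma adjusted p = 0.907). STE7, the gene of the MAP kinase kinase, was the only tested member with a negative difference. It stood at 125 and 144 in galactose B and C, against 143 and 167 in glucose A and B (-0.21 ± 0.26 SE, 95% interval -0.89 to 0.47, limma adjusted p = 0.847). Galactose C and glucose A read nearly alike for STE7, so the media met in the middle of its range.

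KSS1, the MAP kinase gene of the filamentation branch, read 98.5 and 50.5 in galactose B and C, against 51.6 and 70.0 in glucose A and B. Galactose B was the highest array and galactose C the lowest, so the glucose arrays lay between them. The KSS1 difference of 0.23 ± 0.40 (SE; 95% interval -0.82 to 1.28, limma adjusted p = 0.898) turned to -0.25 without galactose B. Its interval, which extends past a doubling, is the second widest among the members after that of TEC1.

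Of the transcription factor genes, STE12 overlapped between the media. It read 120.5 and 101 in galactose B and C, against 88.3 and 111 in glucose A and B, and glucose B lay between the galactose arrays. Its difference was 0.15 ± 0.27 (SE), or 1.11-fold, with a 95% interval of -0.56 to 0.86 (limma adjusted p = 0.903). On the fold scale the interval ran from 0.679 to 1.82.

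TEC1, the partner of STE12 in filamentous growth, read 575 and 278 in galactose B and C, against 161 and 141 in glucose A and B. The media did not overlap, and galactose B lay 2.06-fold above galactose C, a ratio larger than that of galactose C to glucose A. Relative to the glucose mean on the log2 scale, TEC1 stood 3.81-fold higher on galactose B and 1.85-fold higher on galactose C. The mean difference was 1.41 ± 0.42 (SE), or 2.65-fold, with a 95% interval of 0.31 to 2.50. The unadjusted p was 0.0218 and the p adjusted over all probe sets 0.449 (limma), so TEC1 did not pass. It ranked 172 of 7302 by the size of a positive difference, and 2.36% of probe sets had a difference at least as high. The fold was 1.85 without galactose B and 3.81 without galactose C.

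**Figure D2:**
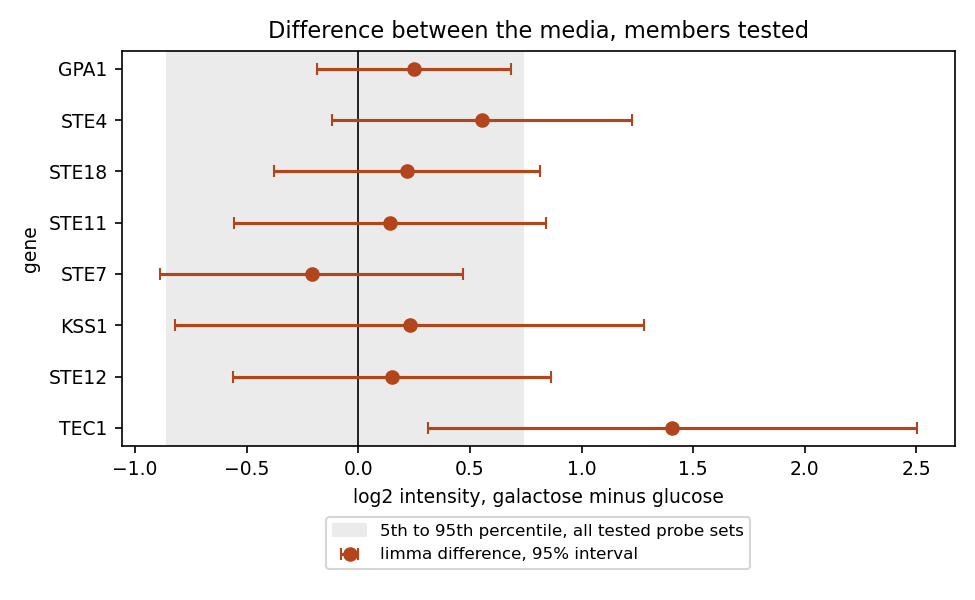
Log2 difference of intensity, galactose minus glucose, for the 8 members tested, with the 95% interval of the limma fit, and the range from the 5th to the 95th percentile of all tested probe sets in grey. TEC1 (1.41) lies beyond the grey range of -0.86 to 0.74 and is the only member whose unadjusted interval leaves out 0.

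KSS1 and TEC1 shared the order of the galactose arrays, with galactose B 1.95-fold above galactose C for KSS1 and 2.06-fold for TEC1. GPA1, STE18 and STE12 were also higher on galactose B than on galactose C, by 1.11-fold, 1.43-fold and 1.20-fold. STE4, STE11 and STE7 had the opposite order, at ratios of 0.828, 0.867 and 0.870. The difference between the galactose arrays is thus not a common shift of the members. GAL1 differed little between these arrays (9927 on galactose B and 8965 on galactose C).

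Genes that act above the kinase cascade showed no call. The list held 7 genes for the kinases Ste20 and Cla4, the adaptors Ste50, Opy2 and Bem1, the GTPase Cdc42 and its exchange factor Cdc24. Of the 7, 0 passed (limma, and 0 at an unadjusted p under 0.05), and the median difference was -0.04. Of these genes 2 were apart above and 1 below, beside 17.0% and 22.1% of all tested probe sets. STE20, whose kinase activates Ste11, stood at 359 and 251 in galactose B and C, against 267 and 336 in glucose A and B. STE50, whose protein binds Ste11, read 127 and 139 in galactose and 141 and 132 in glucose. The brightest of the list, CDC42, read 1206 and 1389 in galactose B and C, against 1613 and 1881 in glucose A and B (-0.43 ± 0.23 SE, limma adjusted p = 0.656).

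Of 10 negative regulators, 9 were tested and 0 passed (limma; 0 also at an unadjusted p under 0.05). Their median difference was 0.15, with 2 apart above and 1 below, beside 17.0% and 22.1% of all tested probe sets. DIG1 and DIG2 encode proteins that hold Ste12 inactive. DIG1 read 141 and 163 in galactose B and C and 151 and 142 in glucose A and B, and DIG2 read 66.5 and 67.6 in galactose and 67.1 and 52.4 in glucose. SST2, whose product speeds GTP hydrolysis by Gpa1, read 88.0 and 37.6 in galactose B and C, against 51.3 and 69.4 in glucose A and B. Its galactose arrays thus enclosed the glucose arrays, as those of KSS1 did. MSG5, the gene of a phosphatase that acts on Fus3, read 124 and 104 in galactose and 124 and 84.3 in glucose.

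Of 20 pheromone response targets of Ste12, 7 lay under the floor on all arrays, among them AGA1, the anchor of the mating agglutinin, at 13.2 and 13.1 in galactose B and C and 13.5 and 13.4 in glucose A and B. FAR1, which arrests the cell cycle in response to pheromone, read 7.9 and 8.58 in galactose and 8.83 and 7.06 in glucose. Of the 13 tested, 0 passed (limma), and 1 had an unadjusted p under 0.05, beside 8.61% of all tested probe sets. Of these 13, 3 were apart above and 0 below, beside 17.0% and 22.1% of all tested probe sets. Their median difference was 0.17. FUS1, a cell fusion gene and a standard reporter of the pathway, read 34.5 and 33.7 in galactose B and C, against 29.3 and 27.8 in glucose A and B (0.26 ± 0.15 SE, limma adjusted p = 0.696). KAR4, a factor gene needed for karyogamy, read 49.1 and 60.1 in galactose and 50.4 and 47.4 in glucose. The 3 brightest genes of the list, KAR3, PRM4 and CIK1, overlapped between the media, with differences of -0.06, 0.94 and 0.17. PRM5, chosen after its values were seen, read 63.5 and 40.6 in galactose B and C, against 12.1 and 7.72 in glucose A and B, which lie under the floor. The mean of the galactose arrays on the log2 scale was at least 2.74-fold over glucose, taken at the floor, and PRM5 did not pass (limma adjusted p = 0.153). PRM5 is the 1 gene counted above at an unadjusted p under 0.05. PRM5 entered the test only through its galactose arrays. Both glucose arrays stood at the floor in the fit and add no spread, so its p-values are not evidence of a difference.

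Of the 9 filamentous growth targets of Ste12 and Tec1, 8 were tested and 0 passed (limma), and the median difference was 0.45. At an unadjusted p under 0.05 there was 1, beside 8.61% of all tested probe sets. Of the 8, 4 were apart above and 0 below, beside 17.0% above and 22.1% below over all tested probe sets. The brightest was DDR48, a stress protein gene, at 6289 and 4920 in galactose B and C, against 2947 and 3682 in glucose A and B (0.76 ± 0.25 SE, unadjusted p = 0.0307, limma adjusted p = 0.525). A second, dimmer DDR48 probe set overlapped between the media, at 1137 and 2645 in galactose and 1305 and 935 in glucose. SVS1, a cell wall protein gene, read 2391 and 1650.2 in galactose B and C, against 1319 and 1159 in glucose A and B (0.68 ± 0.27 SE, limma adjusted p = 0.591). MSB2, the gene of a signalling mucin at the head of the filamentation branch, read 1616 and 1262 in galactose B and C, against 1082 and 644 in glucose A and B (0.77 ± 0.34 SE, limma adjusted p = 0.592). On these probe sets the 3 genes separated the media upward, as TEC1 did. The members of the list that did not separate included FLO11, the flocculin of filamentous cells (70.8 and 125 in galactose, 78.3 and 73.0 in glucose), and the G1 cyclin gene CLN1 (729 and 445 in galactose, 559 and 641 in glucose). PGU1, the gene of a secreted pectinase, lay under the floor at 14.4 and 11.4 in galactose and 18.3 and 14.4 in glucose. Relative to glucose, the 8 genes had a median log2 difference of 0.88 for galactose B and of 0.38 for galactose C.

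**Figure D3:**
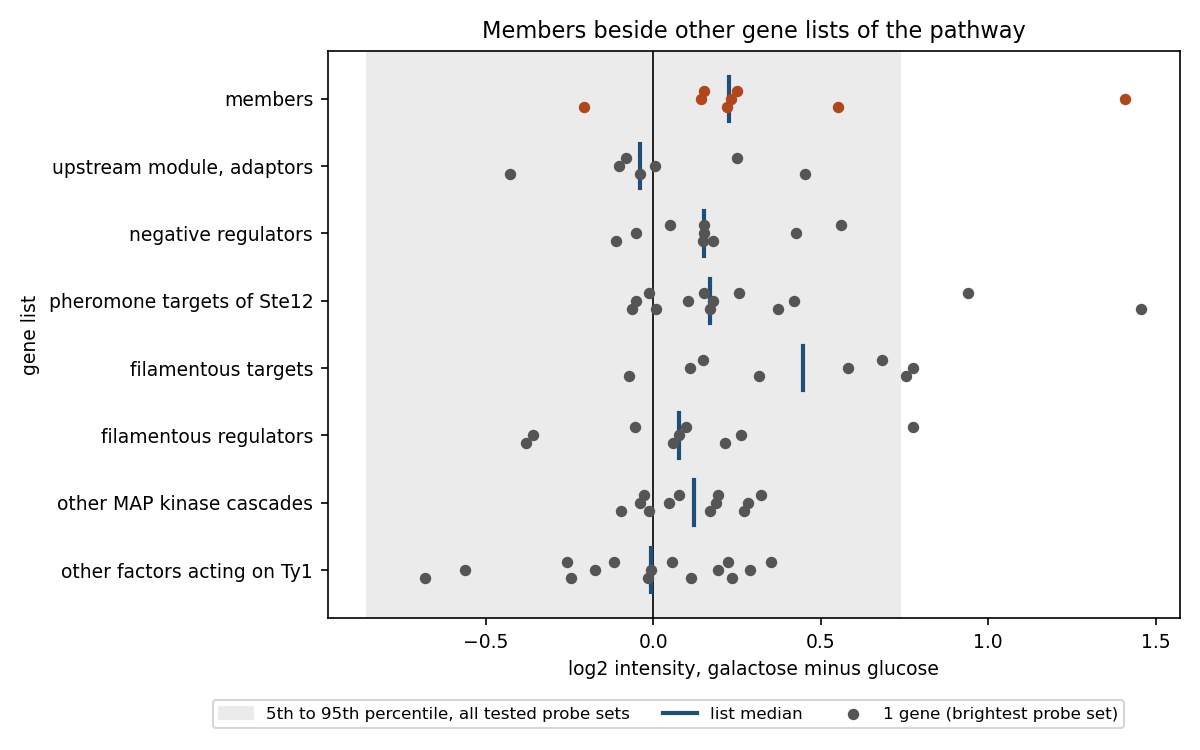
Log2 difference of intensity, galactose minus glucose, for each tested gene (points, brightest probe set) of the members and 7 other lists, with the list median as a bar and the 5th to 95th percentile of all tested probe sets in grey. The filamentous growth targets have the highest median of the 8 lists drawn (0.45), the members lie at 0.23, and the 0 line falls within the spread of every list.

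Ty1 transcription depends on STE12 and TEC1 and on other factors. Of 15 genes of such factors, 0 passed (limma, and 0 at an unadjusted p under 0.05), and the median difference was -0.01. Of these genes 2 were apart above and 4 below, beside 17.0% and 22.1% of all tested probe sets. The brightest was GCN4, the activator of amino acid synthesis genes, at 9605 and 7413 in galactose B and C and 8157 and 8077 in glucose A and B. Probe sets that list any of 15 Ty1 reading frames were taken as a group, with frames chosen after values of these elements were known. Of 44 tested, 11 were called higher (limma, against 0.794% of all probe sets), and the median difference was 0.93. Of these 44, 28 were apart above and 0 below, beside 17.0% and 22.1% of all tested probe sets. Given how the frames were chosen, these counts describe the group and are not a test of it. Copies of Ty1 and of the related Ty2 elements are nearly identical and most of these probe sets list several genes, so they share targets and may read either family. In the 6 that list only these Ty1 frames, 1 was called and the median was 0.35.

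Most of the haploid-specific, a-specific and α-specific genes listed here were under the floor or close to it. Over all 5656 genes, 253 lay under the floor on all arrays on their brightest probe set. Of the members named above as repressed in diploid cells, STE4, GPA1 and STE18 lay above the floor on all arrays, and STE5 and FUS3 under it. Of 5 haploid-specific genes outside the members, HO, AXL1 and FAR1 lay under the floor on all arrays. NEJ1, a repair factor gene, read 77.6 and 69.3 in galactose B and C and 79.9 and 89.9 in glucose A and B, and RME1, a repressor of meiosis genes, read 182 and 405 in galactose and 298 and 179 in glucose. The summed intensity of the 5, to which RME1 gave the largest part, ran from 298 to 518 in galactose and from 307 to 415 in glucose. Of 7 a-specific genes, 3 lay under the floor on all arrays and 3 above it on all arrays (summed intensity 190.0 to 222 in galactose and 178 to 194 in glucose). MFA1 gave the largest part of these sums, at 82.0 and 92.8 in galactose and 84.3 and 76.1 in glucose. A dimmer MFA1 probe set, not in the sums, read 19.6 and 30.2 in galactose and 23.7 and 23.4 in glucose. Of 4 α-specific genes, only the agglutinin gene SAG1 lay above it (sum of the list 89.5 to 89.7 in galactose and 79.8 to 104 in glucose). The pheromone receptor genes were among those near or under the floor, with STE2 at 17.1 and 25.3 in galactose and 18.8 and 14.9 in glucose, and STE3 at 13.1 and 10.8 in galactose and 11.6 and 12.7 in glucose. No gene of these lists that was tested passed between the media (limma; 0 also at an unadjusted p under 0.05). HMRA1, which shares its sequence with the a1 gene of the mating type locus, read 201 and 358 in galactose and 261 and 164 in glucose on its brightest probe set. Its dimmest read 18.8 and 37.0 in galactose and 26.2 and 20.1 in glucose. Probe sets shared by HMRA2, MATALPHA2 and HMLALPHA2 read 882 and 953 in galactose and 775 and 456 in glucose, and 86.8 and 163 against 110 and 99.6. Those shared by MATALPHA1 and HMLALPHA1 read 17.7 and 13.5 against 18.7 and 21.1, and 25.6 and 40.1 against 39.2 and 32.3. Shared probe sets do not tell their genes apart. The part of mating type in the low readings of STE5, FUS3 and the pheromone targets was not tested.

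**Figure D4:**
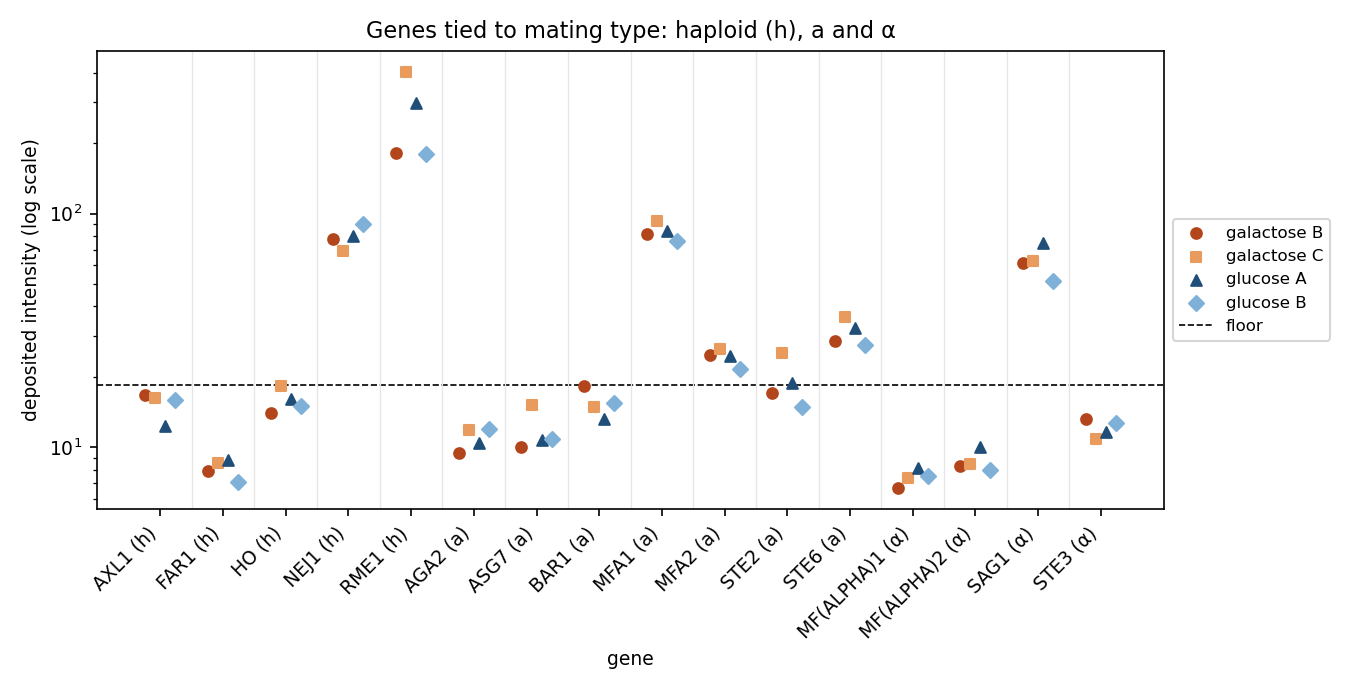
Deposited intensity (log axis) of 5 haploid-specific (h), 7 a-specific (a) and 4 α-specific (α) genes on each array, with galactose left of glucose and the floor of 18.5 dashed. HO, AXL1, FAR1, 3 a-specific and 3 α-specific genes lie under the floor on all 4 arrays, and NEJ1, RME1, MFA1, MFA2, STE6 and SAG1 lie above it on all 4.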

How the data were processed

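The authors deposited 1 linear intensity per probe set and array, and how these were summarised and scaled is not given in the sources used here. Array medians differed by a factor of 1.08, so the values were not rescaled. After 60 array controls were removed, intensities under the 25th percentile were set to it (18.5), log2 was taken, and the 1973 of 9275 probe sets with no value over it were left out. The other 7302 were fitted with limma 3.58.1 in R 4.3.3 (intensity trend, 2 residual and 4.73 total degrees of freedom), with Benjamini-Hochberg adjustment over all 7302. The steps were tested on simulated data. The platform annotation gave 6504 probe sets a single symbol, 328 several and 2443 none, and all 6504 matched RefSeq R64 by gene number. With 4 arrays, which split into pairs in 3 ways, an exact permutation test cannot reach 0.05. For other lists the brightest probe set stood for a gene. All members could be named, and from every other list the genes that passed, the 3 brightest and preset key genes. PRM5, STE2, AXL1 and SMK1 were named outside this rule, as were Bem1 and Cdc24 in the description of their list and the shared mating type probe sets. The members and lists were chosen with earlier results of these data known. The alternatives were other scalings, floors, filters and variance models, and each array left out. Figures were drawn with Python 3.11.15, pandas 2.3.3 and matplotlib 3.10.9. Coordinates are left out, since the values come with no genome build.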

Additional observations from a re-analysis of the deposited data

How the results depend on the processing

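No member passed in any of 9 other settings of the fit. For the 8 members tested, 102 differences were recomputed, in these settings and with each of the 4 arrays left out. TEC1 had a limma adjusted p from 0.395 to 0.642 in the 9 settings. Its difference ran from 1.31 to 1.42 in the 9 settings and from 0.88 to 1.93 with an array left out. Over all probe sets, 61 were called, against 6 to 83 in the 9 other settings. There were 36 with the 10th percentile as floor, 28 after quantile normalization and 6 among probe sets with 1 gene symbol. The remaining settings gave 62 to 83, the most with no floor. A fit with an array left out keeps 1 residual degree of freedom and assumes that a lone array varies like the other medium, so its calls are not given. With an array left out, 4 to 7 of the 8 tested members were apart, against 3, as fewer arrays overlap less. There were 6 apart without galactose B (4 of them above) and 7 without galactose C (6 above). There were 5 without glucose A (4 above) and 4 without glucose B (4 above). The share of all probe sets apart in these settings is not given, so these counts have no background to be read against. Differences that turned were those of STE18 (-0.040 to 0.48), KSS1 (-0.25 to 0.71), STE11 (-0.0052 to 0.29) and STE12 (-0.016 to 0.32) with an array left out; the cause was not tested. The median of the filamentous targets, left out array by array after the data were seen, ran from 0.36 to 0.88. With the floor at the 40th percentile GPA1 and STE18 were not tested. With the floor at the 10th percentile 10 member probe sets were tested, those added being of STE5 or FUS3. Of these 10, 0 passed (limma) and 4 were apart above, with no share of all probe sets given for that setting. No paired analysis was possible because the media share only the letter B.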

Other observations

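A list of other MAP kinase pathways held genes of the sensors, regulators and kinases of the osmotic stress and cell wall pathways, and SMK1, a sporulation MAP kinase gene. Of its 13 genes 12 were tested, 0 passed (limma, and 0 at an unadjusted p under 0.05), and the median difference was 0.12. Of these genes 2 were apart above and 1 below, beside 17.0% and 22.1% of all tested probe sets. The osmotic stress MAP kinase gene HOG1 read 1691 and 1892 in galactose B and C and 1412 and 1732 in glucose A and B. The cell wall MAP kinase gene SLT2 read 869 and 556 in galactose and 583 and 656 in glucose, with galactose B the highest and galactose C the lowest array, the order also seen for KSS1.

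Of 10 regulators of filamentous growth beside the kinase cascade, 9 were tested and 0 passed (limma, and 0 at an unadjusted p under 0.05). Their median difference was 0.08, with 2 apart above and 2 below, beside 17.0% and 22.1% of all tested probe sets. MSB2, described above among the targets, is 1 of those apart above. PHD1, a factor gene that promotes filamentation, read 452 and 404 in galactose B and C, against 591 and 509 in glucose A and B (-0.36 ± 0.24 SE, limma adjusted p = 0.734). TPK2, a catalytic subunit gene of protein kinase A, had its lowest and highest readings on the galactose arrays, at 464 and 1045, against 723 and 585 in glucose.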
